A study of Mus musculus with 6 samples.

Results

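The oligosaccharyltransferase is the enzyme complex of the endoplasmic reticulum that moves a preassembled sugar tree from the lipid dolichol onto asparagine residues of newly made proteins. Transcripts of 10 genes for its subunits (Ost4, Dad1, Ddost, Rpn1, Rpn2, Stt3a, Stt3b, Tusc3, Ostc and Krtcap2) were followed in cultured mouse synovial fibroblasts, among 21033 gene symbols in the count table. All 10 were found in the table and all 10 passed the filter on low counts. They were listed by function around Ost4, which was chosen by its lower level with compound 33 in these same data. The values of Ost4 in that comparison are therefore a description, and the question put to the data is whether the 9 partner subunits were lower too. A pair of further subunits, Magt1 and Tmem258, is given alongside as context.

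All 6 libraries share the genotype hTNFtg, a human TNF transgene that causes arthritis in mice, and the tissue of origin, the ankle joint. Primary cells were kept in culture for 3 passages and then received either 10 µM compound 33 or the vehicle DMSO for 48 h, with 3 libraries in each group. Age and sex of the mice, and whether cells of several animals were pooled, are not stated in the labels. Replicates carry numbers, but the labels do not tell whether each is a culture or an animal of its own. The p-values therefore reflect the spread among these libraries alone, and that spread may be technical.

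The libraries held between 1594052 and 2897207 reads counted for a gene symbol. All 9 fibroblast markers looked up were detected, with a summed level of 12073 to 13585 counts per 1000000 reads (CPM) with DMSO and 10869 to 12875 CPM with compound 33. The sum hides opposite differences in single markers. Thy1 was at 574 to 871 CPM with DMSO and 427 to 525 CPM with compound 33. Pdgfrb was at 123 to 206 CPM with DMSO and 254 to 303 CPM with compound 33. For the other fibroblast markers the groups overlapped. The defining leukocyte genes Ptprc and Adgre1 had at most 4 and 2 reads in any library, although Lyz2, a lysozyme gene on the same list of 5 markers, reached 300. That list summed to 41.0 to 114 CPM with DMSO and 37.7 to 79.3 CPM with compound 33. The list of 4 cartilage markers summed to 77.9 to 163 CPM with DMSO and 112 to 155 CPM with compound 33, mostly from Sox9 (59.4 to 144 CPM over all libraries) and Comp (12.8 to 54.0 CPM), while Acan had no read. The 4 endothelial markers summed to 2.09 to 3.16 CPM with DMSO and 4.63 to 9.54 CPM with compound 33, with Pecam1 at 0. The 4 smooth muscle or pericyte markers summed to 28.6 to 64.4 CPM with DMSO and 25.7 to 70.5 CPM with compound 33, mostly from Mcam. The part of these other cells in the results below was not tested.

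The complex exists in a pair of forms built around different catalytic subunits. STT3A sits beside the translocon, the channel through which new proteins enter the endoplasmic reticulum, and glycosylates chains as they emerge. STT3B works on sites that were skipped and uses the oxidoreductases TUSC3 or MAGT1 as partners, while OSTC and KRTCAP2 tie STT3A to the translocon. Ribophorins I and II (Rpn1, Rpn2), DDOST, DAD1, TMEM258 and OST4 belong to both forms. OST4 is a very small membrane protein that helps to hold a catalytic subunit in the complex. Fibroblasts secrete large amounts of N-glycosylated matrix and signalling proteins, so they depend on this step.

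RefSeq promoter sequences on GRCm38.p6, which has the coordinates of mm10, were available for 8 of the 10 genes and span 250 bases before to 50 bases after each start site. The letters CCAAT, searched on both strands, occurred in 7 of these 8 promoters, against 43.0% of the 7985 tested genes with such a sequence and 41.1% of all 27025 genes. The promoter without them was that of Ost4. These sites are shown because the 7 partners searched share them and Ost4 lacks them in this window, so they were picked with the result known. The letters CCACG, searched in the same way, also occurred in 7 of the 8 promoters, against 53.9% of the 7985 tested genes. Ost4 held them and Rpn2 did not. Tusc3 and Ostc were not searched. Genes with several start sites had more sequence searched. For each gene the site nearest the start site is written 5′ to 3′ on the strand that carries the motif, with the matched letters in capitals.
Dad1, chr14:54253928-54253948, plus strand: ccggcgggCCAATtggctccg
Ddost, chr4:138304668-138304688, plus strand: gcgtttcgCCAATaaggtaca
Rpn1, chr6:88084459-88084479, plus strand: gctgttggCCAATcagcggtt
Rpn2, chr2:157278996-157279016, plus strand: ggcccggcCCAATcgggtccc
Stt3a, chr9:36767645-36767665, minus strand: gaggctagCCAATgcggagcg
Stt3b, chr9:115310601-115310621, plus strand: ggcgtgcgCCAATaggagcgc
Krtcap2, chr3:89246485-89246505, plus strand: cacggATTGGACCACGgacgg

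In Krtcap2 the site is the reverse complement of CCAAT and forms part of a longer match. That match begins at base 18 counted from a start site, so it lies after that start and not before it. The capitals in the Krtcap2 line mark ATTGG and CCACG with 1 free base between them, known as endoplasmic reticulum stress element II. In this window 12 of the 27025 genes (0.044%) and 8 of the 7985 tested genes (0.1%) hold it. The other stress element has CCAAT and CCACG with 9 free bases between them. It was found in 0 of the 8 promoters, in 0.137% of all genes and in 0.175% of the tested genes. TGACGTGG, the unfolded protein response element, was also found in 0 of the 8, against 0.714% of all genes and 1.09% of the tested genes. Of the context subunits, Magt1 held CCAAT and Tmem258 did not. A match is a description of these letters and was not tied to any change in level.

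Ost4 stood at 261, 245 and 193 CPM in the DMSO libraries and at 122, 92.0 and 121 CPM in the compound 33 libraries. Every compound 33 library was below every DMSO library. Group means were 233 ± 35.6 CPM with DMSO and 112 ± 17.1 CPM with compound 33 (SD, n = 3 each), and the log2 fold change was -1.06 (SE 0.22). Behind these levels are 492, 544 and 554 reads with DMSO and 199, 222 and 236 reads with compound 33. In bulk RNA, fewer cells that make a transcript and less of it in each cell cannot be told apart. Of 10124 tested genes, 85 (0.84%) had a log2 fold change as low or lower, and among the 2109 genes with a mean of at least 100 CPM there were 7, Ost4 included. Since Ost4 was chosen for its lower level in this comparison, its place is a description and no test.

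The value that drew attention to Ost4 is in the authors' deposited table, where 18 of 10063 genes with an adjusted p (0.179%) lie under 0.05. That table, the authors' deposited table, gives Ost4 a log2 fold change of -1.06 (SE 0.24) and an adjusted p of 0.00696. In edgeR's quasi-likelihood test on the same counts Ost4 did not pass, with an adjusted p of 0.266. In that test 0.0296% of all tested genes passed in either direction.

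Ost4 is a protein-coding gene of mm10 chromosome 5 (30905885 to 30907788, minus strand). Its exons overlap those of Agbl5, a gene for a tubulin deglutamylase on the opposite strand, over 677 bases. GENCODE lists 2 Ost4 transcripts, and the 3′ end of each falls inside an Agbl5 exon, with 249 of 576 and 677 of 1144 exon bases shared. Reads of this library type come from 3′ ends, and no source used here gives the strand setting of the counting, so reads of the shared stretch cannot be told apart by gene. Agbl5 itself was counted at 1, 2 and 1 reads with DMSO and 4, 3 and 9 reads with compound 33, too few to be tested. With the reads of both genes added, levels were 261, 246 and 193 CPM with DMSO and 124, 93.3 and 126 CPM with compound 33, a ratio of group means of 0.490. With so few Agbl5 reads this sum had to follow Ost4, so it is no test of the overlap. Any read of the shared stretch that was counted for neither gene is missing from it. A search with the last 150 bases of the longest coding transcript of each subunit returned no other annotated gene over 75 bases or more at 95% identity. It did not return Agbl5 for Ost4 either, although the annotated 3′ ends lie inside Agbl5 exons. Because the search missed this annotated overlap, it does not show that the end of Ost4, or of any other subunit, is unique.

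**Figure D1:**
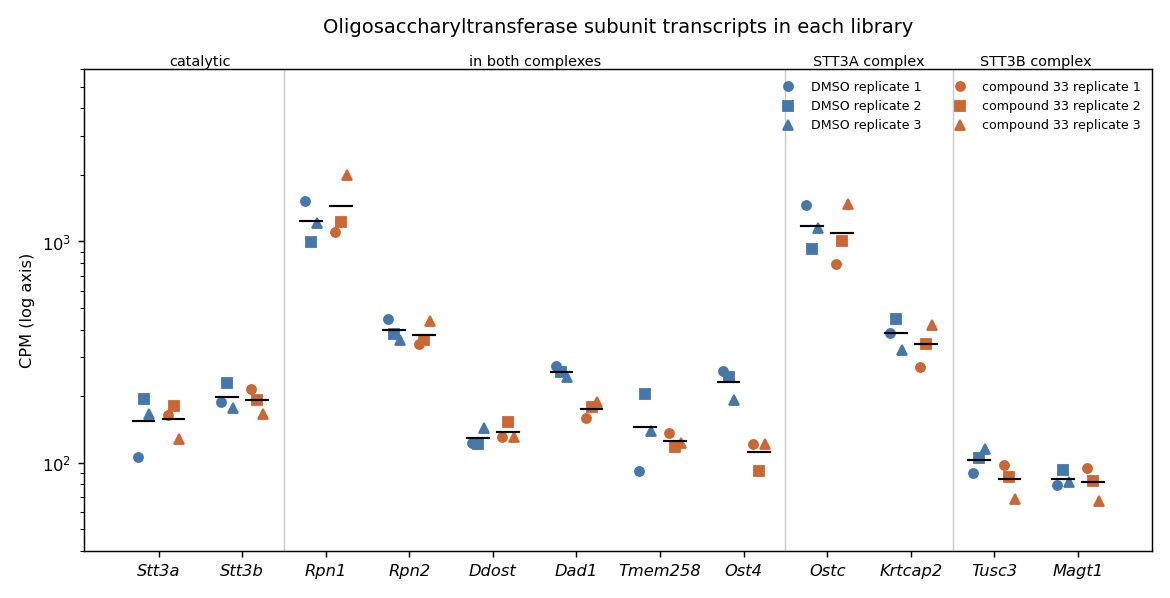
Level of each of 12 subunit transcripts (CPM, log axis) in the 3 DMSO (blue) and 3 compound 33 (orange) libraries, ordered by role, with black bars at group means. The symbols of the groups separate for Ost4 and Dad1 and overlap for the other 10.

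Dad1 was the partner nearest to Ost4 in its pattern of groups. DAD1 is a small membrane subunit present in both forms of the complex and was first known as a protein whose loss leads to cell death. Its transcript stood at 274, 257 and 245 CPM with DMSO and at 160, 179 and 188 CPM with compound 33. The groups did not overlap, which was so for 1 of the 9 partners, while 6.73% of all tested genes had compound 33 libraries wholly below DMSO libraries. The log2 fold change was -0.56 (SE 0.19, 95% interval -0.98 to -0.14), from 258 ± 14.5 to 175 ± 14.4 CPM, and it did not pass (edgeR adjusted p = 0.599, unadjusted p = 0.0124). Dad1 kept a negative sign in all 15 alternative analyses, from -0.60 to -0.50, with adjusted p between 0.454 and 0.904. The gene is on chromosome 14 (54235479 to 54254104, minus strand), and GENCODE annotates no other gene over its exons.

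The catalytic subunits showed overlapping levels. Stt3a stood at 107, 194 and 165 CPM with DMSO and at 165, 180 and 129 CPM with compound 33 (log2 fold change 0.02, SE 0.25, 95% interval -0.51 to 0.56). The compound 33 values lay inside the range of the DMSO values. Stt3b stood at 188, 229 and 178 CPM with DMSO and at 216, 193 and 167 CPM with compound 33 (log2 fold change -0.05, SE 0.21, 95% interval -0.49 to 0.40). Neither passed edgeR's test (adjusted p = 0.990 for Stt3a and 0.978 for Stt3b). The balance between the catalytic transcripts was also similar in range, with Stt3a giving 36.2%, 45.8% and 48.2% of their summed reads with DMSO and 43.3%, 48.3% and 43.6% with compound 33. DMSO replicate 1, the lowest of these shares, had the lowest Stt3a level of all libraries. Both genes are on the minus strand of chromosome 9, Stt3a at 36729344 to 36767679 and Stt3b at 115242581 to 115310421.

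Among the shared subunits, ribophorin I and ribophorin II bind the ribosome-translocon assembly and handle substrates, and DDOST is a core subunit of the complex. Rpn1 was the most abundant member, at 1525, 993 and 1210 CPM with DMSO and 1101, 1224 and 2006 CPM with compound 33 (log2 fold change 0.22, SE 0.27, adjusted p = 0.931 in edgeR). Compound 33 replicate 3 stood apart from the other libraries of its group, the DMSO values were spread more evenly, and the groups overlapped. Rpn2 stood at 448, 381 and 360 CPM with DMSO and 344, 357 and 435 CPM with compound 33 (log2 fold change -0.06, SE 0.20). Ddost stood at 124, 121 and 144 CPM with DMSO and 131, 152 and 131 CPM with compound 33 (log2 fold change 0.09, SE 0.20). Neither Rpn2 nor Ddost passed in edgeR (adjusted p = 0.970 and 0.958). Tmem258, the other small shared subunit, stood at 91.7, 204 and 139 CPM with DMSO and 136, 117 and 123 CPM with compound 33, all of the latter inside the DMSO range.

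The subunits that join STT3A to the translocon also had overlapping groups. Ostc stood at 1455, 927 and 1150 CPM with DMSO and at 794, 1005 and 1480 CPM with compound 33 (log2 fold change -0.11, SE 0.27, adjusted p = 0.961 in edgeR). Krtcap2 stood at 387, 446 and 323 CPM with DMSO and at 271, 343 and 421 CPM with compound 33 (log2 fold change -0.16, SE 0.23, adjusted p = 0.938 in edgeR). In both genes compound 33 replicate 1 was the lowest library. Rpn1 and Ostc had their highest DMSO value in replicate 1 and their highest compound 33 value in replicate 3. Those libraries also held the lowest Stt3a level of their group. Together Rpn1 and Ostc made up 49.2% to 61.3% of the reads of the 10 genes with DMSO and 55.7% to 67.7% with compound 33.

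The oxidoreductase subunits of the STT3B form were the least abundant. Tusc3 stood at 89.6, 105 and 116 CPM with DMSO and at 97.8, 86.6 and 69.0 CPM with compound 33 (log2 fold change -0.30, SE 0.22, adjusted p = 0.877 in edgeR). Its groups overlapped in 1 library of each, the DMSO minimum lying below the compound 33 maximum. Magt1, which can take the place of Tusc3, stood at 79.0, 92.5 and 82.2 CPM with DMSO and at 94.8, 82.9 and 66.9 CPM with compound 33 (log2 fold change -0.05, SE 0.22). Tusc3 gave 53.1%, 53.2% and 58.5% of the summed Tusc3 and Magt1 reads with DMSO and 50.8%, 51.1% and 50.8% with compound 33. The groups did not overlap in this share, though the nearest libraries were close, and a difference in it was not tested.

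**Figure D2:**
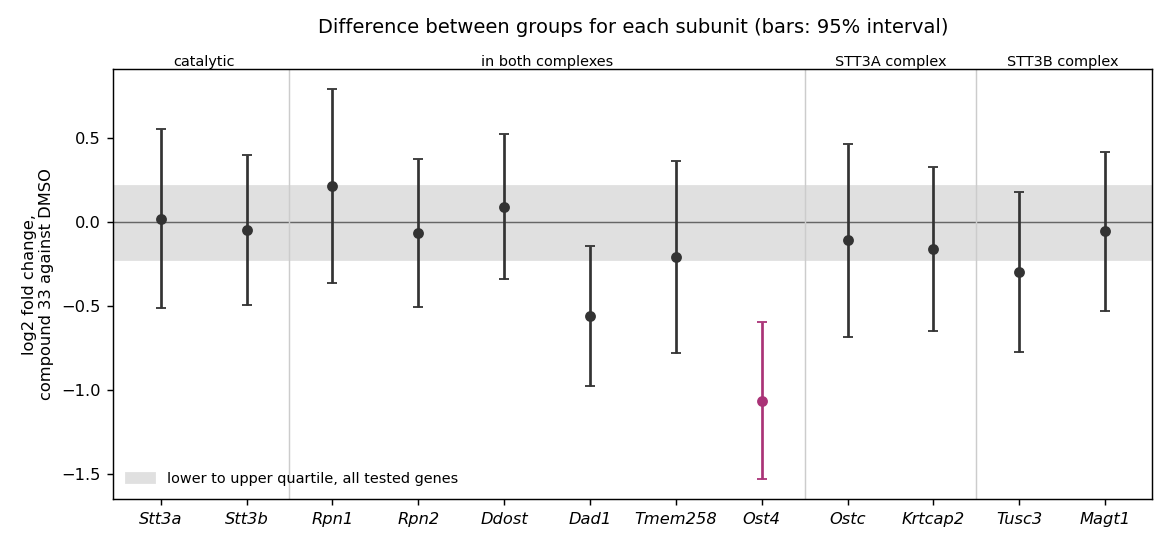
Log2 fold change of each subunit, compound 33 against DMSO, with its 95% interval from the edgeR fit; the grey band spans the lower to the upper quartile of all tested genes. Ost4 sits at -1.06 and Dad1 at -0.56, and the intervals of the other 10 include 0.

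Among the 9 partners, no level differed between groups beyond the threshold of the test. In edgeR 0 of them passed after adjustment over all genes, 1 of them (Dad1) had an unadjusted p under 0.05, and DESeq2 and limma-voom also passed 0. An unadjusted p under 0.05 was reached by 6.87% of all tested genes. The median log2 fold change of the partners was -0.06, beside -0.01 over all tested genes. A negative sign was found in 6 of the 9, where 51.1% of all tested genes were below 0. For each of the 9 partners, and for Magt1 and Tmem258, the 95% interval lay above the Ost4 estimate of -1.06, the lowest bound being -0.98 for Dad1. The Ost4 estimate has its own interval of -1.53 to -0.59, which shares values with intervals of several partners. A difference from Ost4 was not tested, because Ost4 was selected in this comparison.

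Ratios of reads within a library do not depend on how libraries are scaled. Those of Ost4 use the same counts that chose it, so they restate its lower level in other units and add no evidence for it. For every 100 reads of Stt3a and Stt3b together there were 88.5, 58.0 and 56.2 reads of Ost4 with DMSO and 31.9, 24.7 and 41.1 with compound 33. Per 100 reads of Dad1 there were 95.3, 95.4 and 78.8 Ost4 reads with DMSO and 76.2, 51.5 and 64.7 with compound 33. The groups did not overlap in either ratio, although the nearest libraries in the ratio to Dad1 were close. Of the reads of all 10 genes, Ost4 gave 5.37%, 6.30% and 4.72% with DMSO and 3.58%, 2.41% and 2.36% with compound 33. The summed level of the 9 partners was 4046 ± 491 CPM with DMSO and 4009 ± 908 CPM with compound 33 (SD, n = 3 each).

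**Figure D3:**
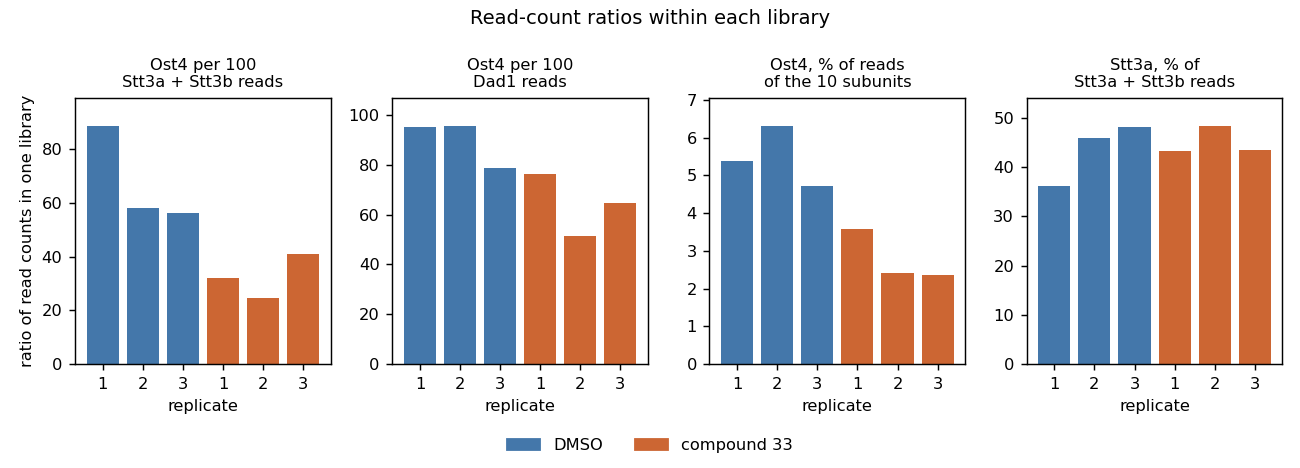
Ratios of read counts within each library, by replicate number, for DMSO (blue) and compound 33 (orange) libraries, with bars starting at 0. Ost4 per 100 Stt3a and Stt3b reads is 56.2 or more in the DMSO libraries and 41.1 or less in the compound 33 libraries, while the share of Stt3a among the catalytic transcripts overlaps between groups.

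The subunits were among the better expressed genes of these cells but far from equal. Because this library type yields reads from 3′ ends only, CPM was compared between genes without a correction for length. That CPM follows the number of transcripts of a gene was assumed and not tested. Reads of Ost4 in the stretch shared with Agbl5 may be missing, so its place in the order is uncertain. With DMSO, Rpn1 (1243 CPM) and Ostc (1177 CPM) did not separate from each other, and both were above Rpn2 (396 CPM) and Krtcap2 (385 CPM) in every DMSO library. Next came Dad1 (258 CPM), Ost4 (233 CPM), Stt3b (198 CPM), Stt3a (155 CPM), Tmem258 (145 CPM) and Ddost (130 CPM), where each neighbour overlapped the next. Tusc3 (103 CPM) and Magt1 (84.5 CPM) closed the order. Within the DMSO group the coefficient of variation ran from 5.60% for Dad1 to 38.9% for Tmem258, with 15.3% for Ost4. Its median was 18.4% over the 2439 genes in the same range of mean level.

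Across the 6 libraries the genes whose log2 CPM was most like that of Ost4 were Aldh6a1 (Pearson's r = 0.996), Pafah1b3 (r = 0.989) and Hand2 (r = 0.984). Aldh6a1 is a mitochondrial dehydrogenase, Pafah1b3 a catalytic subunit of a platelet-activating factor hydrolase, and Hand2 a transcription factor. These are the highest values among all tested genes over only 6 points, so they are a description. None of them passed in edgeR, with log2 fold changes of -0.63 for Aldh6a1 and -0.50 for Pafah1b3 and Hand2. Of the partners, Dad1 was the most like Ost4 (r = 0.925). With group means removed its r was 0.232, below Rpn2 (0.579), Krtcap2 (0.311), Rpn1 (0.296) and Stt3b (0.235), while that of Ddost was -0.977. The genes most like the mean of Stt3a and Stt3b were M6pr (r = 0.994), Pibf1 (r = 0.992) and Surf6 (r = 0.992).

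The rest of the N-glycosylation pathway was described by 5 lists holding 75 genes, of which 72 were tested. None passed in edgeR, DESeq2 or limma-voom, and 6 had an unadjusted p under 0.05 in edgeR, 2 higher and 4 lower with compound 33. That is 8.33% of them, against 6.87% of all tested genes. Groups did not overlap for 12 of the 72 (5 higher and 7 lower), or 16.67%, against 13.4% of all tested genes (6.64% higher and 6.73% lower). Their median log2 fold change was 0.02 and none lay as low as Ost4.

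Upstream of the transferase, enzymes of lipid-linked oligosaccharide assembly build the sugar tree on dolichol. Of 12 tested genes 8 had a positive and 4 a negative sign (median log2 fold change 0.08), and the most abundant were Alg1, a mannosyltransferase (-0.17), and Dpagt1, which adds the first sugar (0.31). Supply of dolichol and sugar donors was represented by 20 tested genes with a median of 0.01. In that list Nus1, a subunit of the enzyme that makes the dolichol chain, stood at 391, 229 and 285 CPM with DMSO and 193, 187 and 226 CPM with compound 33 (log2 fold change -0.58, edgeR adjusted p = 0.690). The groups were separate, with the highest compound 33 library just below the lowest DMSO library. Pgm3, a mutase on the way to UDP-N-acetylglucosamine, stood at 40.3, 35.2 and 25.4 CPM with DMSO and 25.7, 21.6 and 18.5 CPM with compound 33 (log2 fold change -0.61, edgeR adjusted p = 0.720).

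Downstream, 13 tested genes of glycan trimming and glycoprotein folding had a median log2 fold change of 0.09. Uggt1, the glucosyltransferase that marks misfolded glycoproteins for another folding round, stood at 497, 539 and 630 CPM with DMSO and 637, 801 and 1169 CPM with compound 33 (log2 fold change 0.65, edgeR adjusted p = 0.674). The lowest compound 33 library was barely above the highest DMSO library. Ganab, the catalytic subunit of glucosidase II, stood at 65.8, 125 and 141 CPM with DMSO and 156, 183 and 156 CPM with compound 33 (log2 fold change 0.57, edgeR adjusted p = 0.720). Ngly1, the cytosolic enzyme that strips glycans from discarded proteins, stood at 19.6, 18.9 and 24.4 CPM with DMSO and 12.8, 12.4 and 13.4 CPM with compound 33 (log2 fold change -0.71, edgeR adjusted p = 0.686). Neither direction was shared by the list, in which 8 genes were positive and 5 negative.

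In the Golgi list 17 tested genes had a median of 0.08, and Man1a, a mannosidase, had the lowest value (log2 fold change -0.98, SE 0.40, edgeR adjusted p = 0.697). Its DMSO libraries ranged from 36.1 to 134 CPM and overlapped the compound 33 libraries, at 28.3 to 53.8 CPM. The translocon list, whose proteins sit beside STT3A, had a median of -0.06 over 10 tested genes, 7 of them negative. Its most abundant genes were Ssr3, of the translocon-associated protein complex, with a log2 fold change of -0.01, and Sec61a1, the channel itself, with 0.03.

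**Figure D4:**
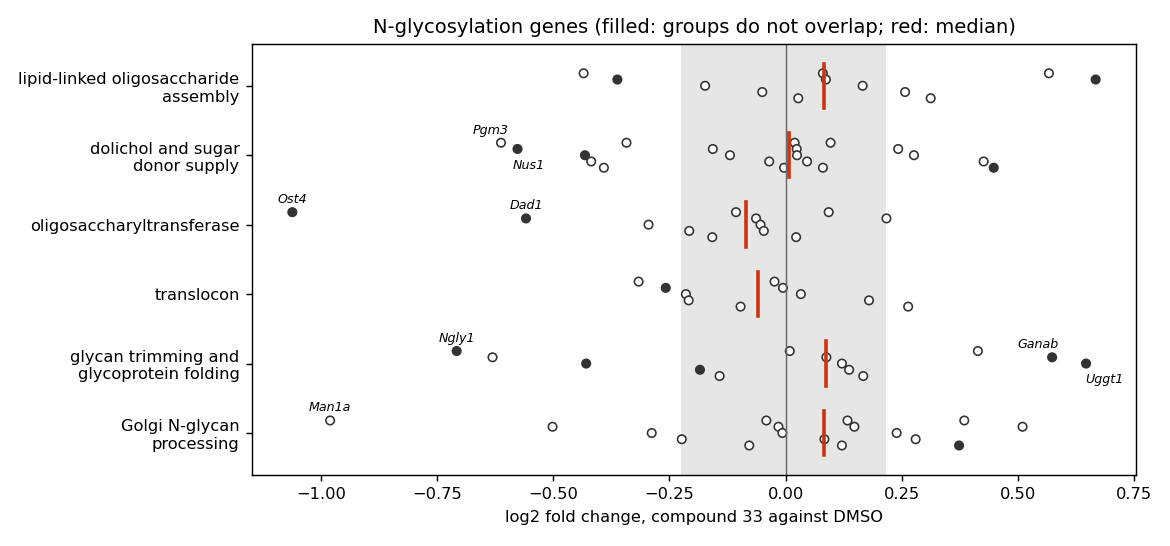
Log2 fold change, compound 33 against DMSO, of each tested gene in the 5 pathway lists and the 12 subunits; red bars are medians, filled points have groups that do not overlap, and the grey band spans the lower to the upper quartile of all tested genes. Medians lie between -0.09 and 0.09, and Ost4, at -1.06, is the lowest point.

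The other subunits with exons shared by a gene on the opposite strand were Rpn1 (Mir6376), Rpn2 (Mroh8), Krtcap2 (Trim46) and Tmem258 (Fen1). Only in Ost4 and Rpn1 did the shared bases lie in the last exon block. Mroh8 had 0 reads in every library, Trim46 between 13 and 33 reads, and Fen1 between 38 and 65. Rpn1 is on chromosome 6 at 88084482 to 88105304 and Rpn2 on chromosome 2 at 157279017 to 157326319, both on the plus strand. Chromosome 3 holds Krtcap2 at 89245966 to 89249906 on the plus strand and Ostc at 130695912 to 130709444 on the minus strand. Ddost is on chromosome 4 at 138304730 to 138312628 and Tusc3 on chromosome 8 at 39005845 to 39165114, both on the plus strand.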

How the data were processed

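RNA of 6 libraries was made into 3′ mRNA libraries (QuantSeq) and sequenced on an Ion Proton instrument, per the labels' protocols. Alignment and counting used HISAT2 2.2.1, featureCounts 2.0.3 and build mm10, with FastQC 0.11.9 and DESeq2 also listed, per the submitters' processing notes. No source used here gives the annotation or the strand setting. The authors deposited raw counts per gene symbol. They also deposited a comparison whose mean is a signal over libraries, with log2 fold changes and standard errors, a Wald score and p-values.

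Counts were fitted in R 4.3.3 with edgeR 4.0.16 (filterByExpr with minimum count 10, TMM scaling, robust quasi-likelihood F test, two-sided, group as the only term, 3 libraries against 3). This kept 10124 genes with over 99.4% of the counted reads of each library. P-values were adjusted by Benjamini-Hochberg over all genes tested, with a threshold of 0.05. Levels are counts per 1000000 reads of the scaled library. Standard errors were obtained from each log2 fold change and its F statistic. The typical coefficient of variation between libraries beyond counting noise was 23.6%. Log2 CPM for likeness used a prior count of 2. The code was tested on simulated data. Alternatives used other scalings and filters, DESeq2 1.42.0, limma-voom (limma 3.58.1), the replicate number as a block, and each library left out.

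Named genes are all 10 subunits, Magt1 and Tmem258, list members with an unadjusted p under 0.05 or otherwise the 2 most abundant, the 3 genes most like Ost4 and the 3 most like the catalytic subunits, and genes with overlapping exons. The members and lists were chosen with earlier results of these data known. Positions come from GENCODE M21 on mm10, counted from 1.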

Additional observations from a re-analysis of the deposited data

How the results depend on the processing

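Under all 15 alternatives, 0 partners and 0 pathway genes passed, and Ost4 stayed below 0, from -1.18 to -0.93 with single libraries left out. The partners' median log2 fold change ran from -0.16 (without compound 33 replicate 3) to -0.010 (without compound 33 replicate 1), and 5 to 7 partners were below 0. With single libraries left out, the ranges that crossed 0 were -0.088 to 0.39 for Rpn1, -0.17 to 0.035 for Rpn2, -0.18 to 0.22 for Stt3a, -0.14 to 0.078 for Stt3b, -0.38 to 0.077 for Ostc, -0.17 to 0.076 for Magt1 and -0.45 to 0.13 for Tmem258. The cause was not tested. Whether Ost4 passes depends on the tool and filter: its adjusted p was 0.266 in the edgeR fit reported, 0.0312 without a low-count filter and 0.0101 in DESeq2. Because Ost4 was chosen by its lower level in these same counts, its values under the alternatives are a description and no test of it.

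Same-numbered libraries deviated together with r = -0.03, 0.21 and 0.08 across genes, and differently numbered ones with r from -0.23 to 0.15. The value of 0.21, for replicate 2, was the highest of all. Compound 33 replicates 1 and 3 had a higher r with a DMSO library of another number (0.08 and 0.15). The numbers were not taken as pairs. With the replicate number as a block, 7 genes passed in place of 3, the partners' median was -0.06, and 0 partners passed.

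The smallest count behind a subunit was 130 reads (Magt1). No limit of detection was computed, and Ost4 itself, at -1.06, did not pass in the edgeR fit with 3 libraries per group.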
